A study of Mus musculus with 6 samples.

Results

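The 10 autophagy and lysosome genes described here are Map1lc3a, Map1lc3b, Sqstm1, Gabarapl1, Ulk1, Becn1, Atg5, Tfeb, Lamp2 and Ctsl, taken by symbol from the expression tables of mouse gastrocnemius, the large calf muscle. Each symbol occurred once, so 10 of 35491 named entries were members, and all 10 passed the filter on low values. RNA was sequenced from 3 Ogg1Tg and 3 Control male mice aged 20 weeks, all on a C57BL/6J background and a chow diet, with no treatment. Ogg1Tg mice carry human OGG1-1a, a DNA repair enzyme that removes oxidised guanine, fused to a mitochondrial translocation signal and driven by the CMV/AG promoter. No restriction of that promoter to muscle is described. The comparison asks whether muscle transcripts differ with the transgene.

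Autophagy encloses cytoplasm, damaged organelles and protein aggregates in a double membrane, the autophagosome, which then fuses with the lysosome, where acid hydrolases break the content down. The ULK1 kinase and the BECN1 lipid kinase complex start the membrane, a conjugation system with ATG5 attaches LC3 and GABARAP proteins to it, SQSTM1 carries cargo to those proteins, and LAMP2 and cathepsins act at the lysosome. TFEB is a transcription factor that turns on many of these genes when it enters the nucleus. In skeletal muscle the pathway is known for clearing worn mitochondria and for supplying amino acids during fasting.

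Ctsl and Tfeb were the members whose levels lay furthest from Control, in opposite directions. Ctsl was 2.28-fold higher in Ogg1Tg muscle, and Tfeb stood at 0.605 times its Control level. Neither passed the threshold, an adjusted p under 0.05 over all genes tested (limma adjusted p = 0.053 for Ctsl and 0.10 for Tfeb). None of the 10 members passed, against 0.545% of the 23312 genes tested in either direction. By the same test at an unadjusted p under 0.05 there were 3 members, Ctsl, Tfeb and Ulk1, against 11% of all genes. With edgeR on recovered reads none of the 10 passed, against 0.532% of genes, and with DESeq2 Ctsl and Tfeb passed, against 2.66% of genes. None passed limma with a pseudocount of 0.1, no filter, a minimum mean of 5 or a replicate block, where 0.48%, 0.478%, 0.616% and 0.438% of genes did. The 2 groups did not overlap for Ctsl, which was higher, against 7.03% of all genes. They did not overlap for Tfeb and Ulk1 either, both lower, against 11.3% of all genes. The median log2 fold change was -0.08 over the 10 members and -0.02 over all genes tested. Values are reads scaled by 1 factor per library, fold changes are Ogg1Tg over Control from log2(value + 1), and means carry the SD with n = 3 per group. The labels do not say whether the mice shared litters, so p-values speak for these 6 libraries alone. In limma they weigh the group difference against the spread within groups, which is moderated by that of all genes tested.

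**Figure D1:**
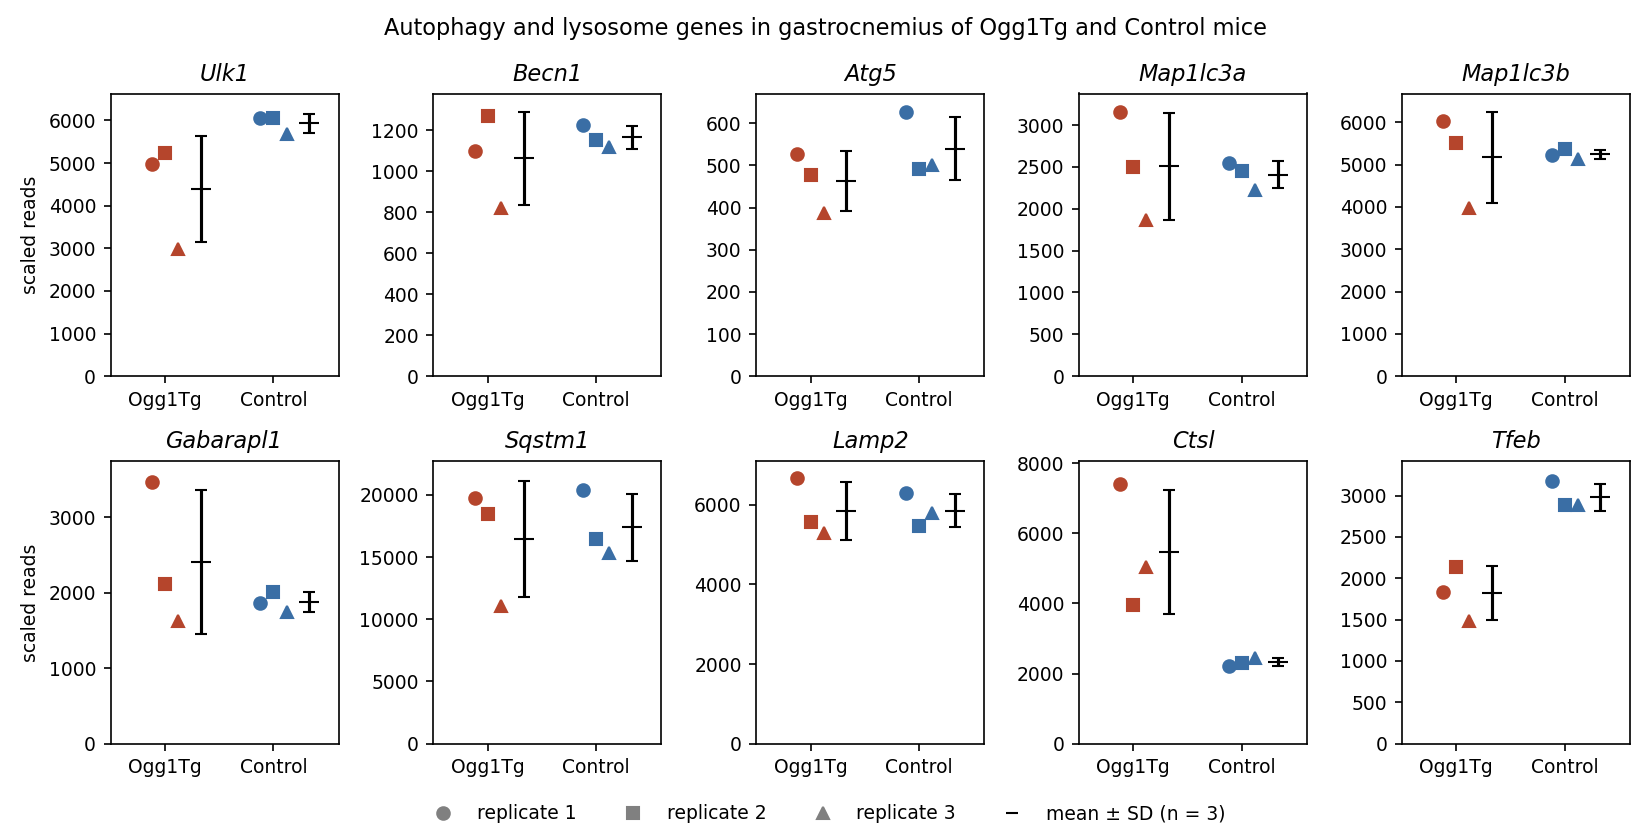
Scaled reads (y axis, from 0) of the 10 genes in each library, with Ogg1Tg libraries in red and Control libraries in blue. Point shapes mark replicate numbers, which the labels do not say pair mice, and bars give the mean ± SD. The 3 Ogg1Tg points lie above all Control points for Ctsl and below all of them for Tfeb and Ulk1.

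The libraries held 45189860 to 56126407 reads in named genes in the Ogg1Tg group and 48393073 to 52070991 in the Control group. The members had between 352 and 17799 reads in a library. Skeletal muscle markers were abundant in all 6 libraries, with Ckm, muscle creatine kinase, at 169389 to 289697 in Ogg1Tg and 223858 to 266205 in Control muscle. Mouse Ogg1 measured 176, 201 and 193 in Ogg1Tg libraries and 154, 225 and 193 in Control libraries, and its row does not measure the human transgene. Ogg1Tg replicate 3 stood apart: ranked over genes, it had Spearman correlations of 0.946 to 0.953 with the other libraries, while those 5 had 0.975 to 0.983 with each other. The summed level of 12 lymphocyte and neutrophil markers was 1217, 1229 and 15004 in Ogg1Tg replicates 1, 2 and 3, and 1071 to 1291 in Control libraries. Most of the sum outside Ogg1Tg replicate 3 was Cxcr2, at 980 and 1011 in Ogg1Tg replicates 1 and 2 and 858 to 1008 in Control libraries. The neutrophil markers S100a8 and S100a9 were at 20.1 or less in every library. The 12 markers differed from their Control means by a median of 1.02, 0.61 and 7.27 on the log2 scale in Ogg1Tg replicates 1, 2 and 3. All 12 had a log2 fold change above 0. The groups overlapped for 9 and did not for 3, which is 25% against 7.03% of all genes. In Control replicates 1, 2 and 3, 5, 2 and 3 of them were at 0. The summed level of 8 adipocyte markers was 3710.0, 3343 and 11624 in Ogg1Tg replicates 1, 2 and 3, and 3918 to 4340.4 in Control libraries. Their groups overlapped for all 8. In whole muscle, fewer cells of a type and less RNA per cell cannot be told apart.

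The regions around the annotated starts of the members show what sequence is at hand for the genes that stood apart. RefSeq on GRCm38.p6, the assembly of mm10, gave windows of 250 bases before to 50 after a start for 8 of the 10 members, 10 windows in all because Tfeb has 3. Of these, the window of Ctsl is shown as that of the gene furthest above Control, the first window of Tfeb as that of the gene furthest below, and the window of Atg5 as the other one with an E-box. Sequences run 5′ to 3′ on the strand of the gene, and capitals mark the matches to the motifs named in the next paragraph.
Ctsl, chr13:64370471-64370770, minus strand: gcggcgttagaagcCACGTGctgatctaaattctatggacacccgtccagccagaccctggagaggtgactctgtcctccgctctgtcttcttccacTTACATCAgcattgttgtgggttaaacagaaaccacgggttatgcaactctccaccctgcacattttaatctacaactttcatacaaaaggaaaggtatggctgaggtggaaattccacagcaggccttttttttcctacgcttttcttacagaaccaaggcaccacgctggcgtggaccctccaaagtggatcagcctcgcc
Tfeb, chr17:47736787-47737086, plus strand: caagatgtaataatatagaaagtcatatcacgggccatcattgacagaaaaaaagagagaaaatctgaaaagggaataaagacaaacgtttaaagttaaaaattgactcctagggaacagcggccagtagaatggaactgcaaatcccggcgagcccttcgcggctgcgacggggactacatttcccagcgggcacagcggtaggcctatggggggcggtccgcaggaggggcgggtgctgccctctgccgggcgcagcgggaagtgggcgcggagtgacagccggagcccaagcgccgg
Atg5, chr10:44268089-44268388, plus strand: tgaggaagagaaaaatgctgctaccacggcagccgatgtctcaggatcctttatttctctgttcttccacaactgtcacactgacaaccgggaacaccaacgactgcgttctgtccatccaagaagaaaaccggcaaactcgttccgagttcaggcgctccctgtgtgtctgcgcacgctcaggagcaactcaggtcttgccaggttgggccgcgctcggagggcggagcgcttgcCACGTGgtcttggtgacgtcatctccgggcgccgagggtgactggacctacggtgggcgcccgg

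The E-box CACGTG, the core of the sites bound by TFEB and its relatives, occurred in the windows of Ctsl and Atg5, and in 7.15% of all 32851 windows. In Ctsl it lay at positions -236 to -231 from the start, and in Atg5 at positions -14 to -9. The longer TCACGTGA was in none of the 10 windows and in 0.974% of all windows, and every match to it also contains the E-box. TGATGNAA, a form of the element bound by ATF4, matched in Ctsl alone among the members, as TTACATCA on the opposite strand at positions -153 to -146, and in 3.97% of all windows. TGACNNNGC, a form of the antioxidant response element, matched in Map1lc3b alone among the members, at positions 5 to 13, and in 12.4% of all windows. GTAAACA, a form of the FoxO site, matched in none of the 10 windows and in 3.65% of all. Both strands were searched. These are matches of letters in a short window, and binding was not measured. The start that RefSeq gives Ctsl, base 64370520, lies inside the gene as GENCODE draws it, whose first base is 64370890.

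Ctsl, which encodes the lysosomal cysteine protease cathepsin L, measured 7417, 3944 and 5046 in Ogg1Tg libraries, against 2210.5, 2305 and 2449 in Control libraries. The lowest Ogg1Tg library was above the highest Control library. The Control mice lay close together, at 2321 ± 119.9, while the Ogg1Tg mice spread widely, at 5469 ± 1775. On the log2 scale the difference was 1.19 ± 0.21 (SE), its 95% interval running from 0.71 to 1.66 (limma adjusted p = 0.053). It lies on chromosome 13 from 64359337 to 64370890. These values rest on 2981 to 6677 reads in Ogg1Tg and 1594 to 1876 reads in Control libraries. An antisense gene, Gm47123, and a pseudogene, Gm49230, lie within Ctsl, and it is not known here if reads were counted by strand.

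The call on Ctsl depended on the fit, while its direction was the same in each. With a robust trend, median-of-ratios rescaling and quantile normalization the limma adjusted p was 0.039, 0.040 and 0.035, against 0.579%, 0.644% and 0.759% of all genes called. It passed without Ogg1Tg replicate 2 (limma adjusted p = 0.016) and without Ogg1Tg replicate 3 (limma adjusted p = 0.017), against 0.829% and 1.86% of all genes called. Without Ogg1Tg replicate 3 but with the filter on low values taken over all 6 libraries, it did not pass at the same log2 fold change of 1.22 (limma adjusted p = 0.22), and 0.12% of all genes were called. Without a variance trend the limma adjusted p was 0.32. With 1 Control library left out it was 0.26 to 0.35. Over all alternatives the adjusted p ran from 4.4e-06 with DESeq2 to 0.35 without Control replicate 2.

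Cathepsin L is also abundant in macrophages, so macrophage markers are given beside it. The summed level of 12 markers was 3886, 3209 and 10905 in Ogg1Tg replicates 1, 2 and 3, and 4399, 5192 and 6332 in Control replicates 1, 2 and 3. Of the 12, 5 had a log2 fold change above 0 and 7 below, none passed, and their groups overlapped for all 12. Fcgr1 was at 0 in Control replicate 1, and no other marker of the list was at 0 in any library. In Ogg1Tg replicate 1, the library with the highest Ctsl, macrophage markers differed from their Control means by a median of -0.34 on the log2 scale, and Ctsl by 1.68. In Ogg1Tg replicate 2 the 2 values were -0.62 and 0.77, and in Ogg1Tg replicate 3 they were 0.81 and 1.12. Of 6 fibroblast markers none passed, 3 had a log2 fold change above 0 and 3 below. Their groups did not overlap for 2 that were higher, 33.3% against 7.03% of all genes. They did not overlap for 1 that was lower, 16.7% against 11.3% of all genes. Median log2 differences of these markers from Control means were 0.27, -0.11 and 0.35 in Ogg1Tg replicates 1, 2 and 3. In Control replicates 1, 2 and 3 they were -0.32, 0.02 and 0.24. The part of macrophages or fibroblasts in the level of Ctsl was not tested.

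**Figure D2:**
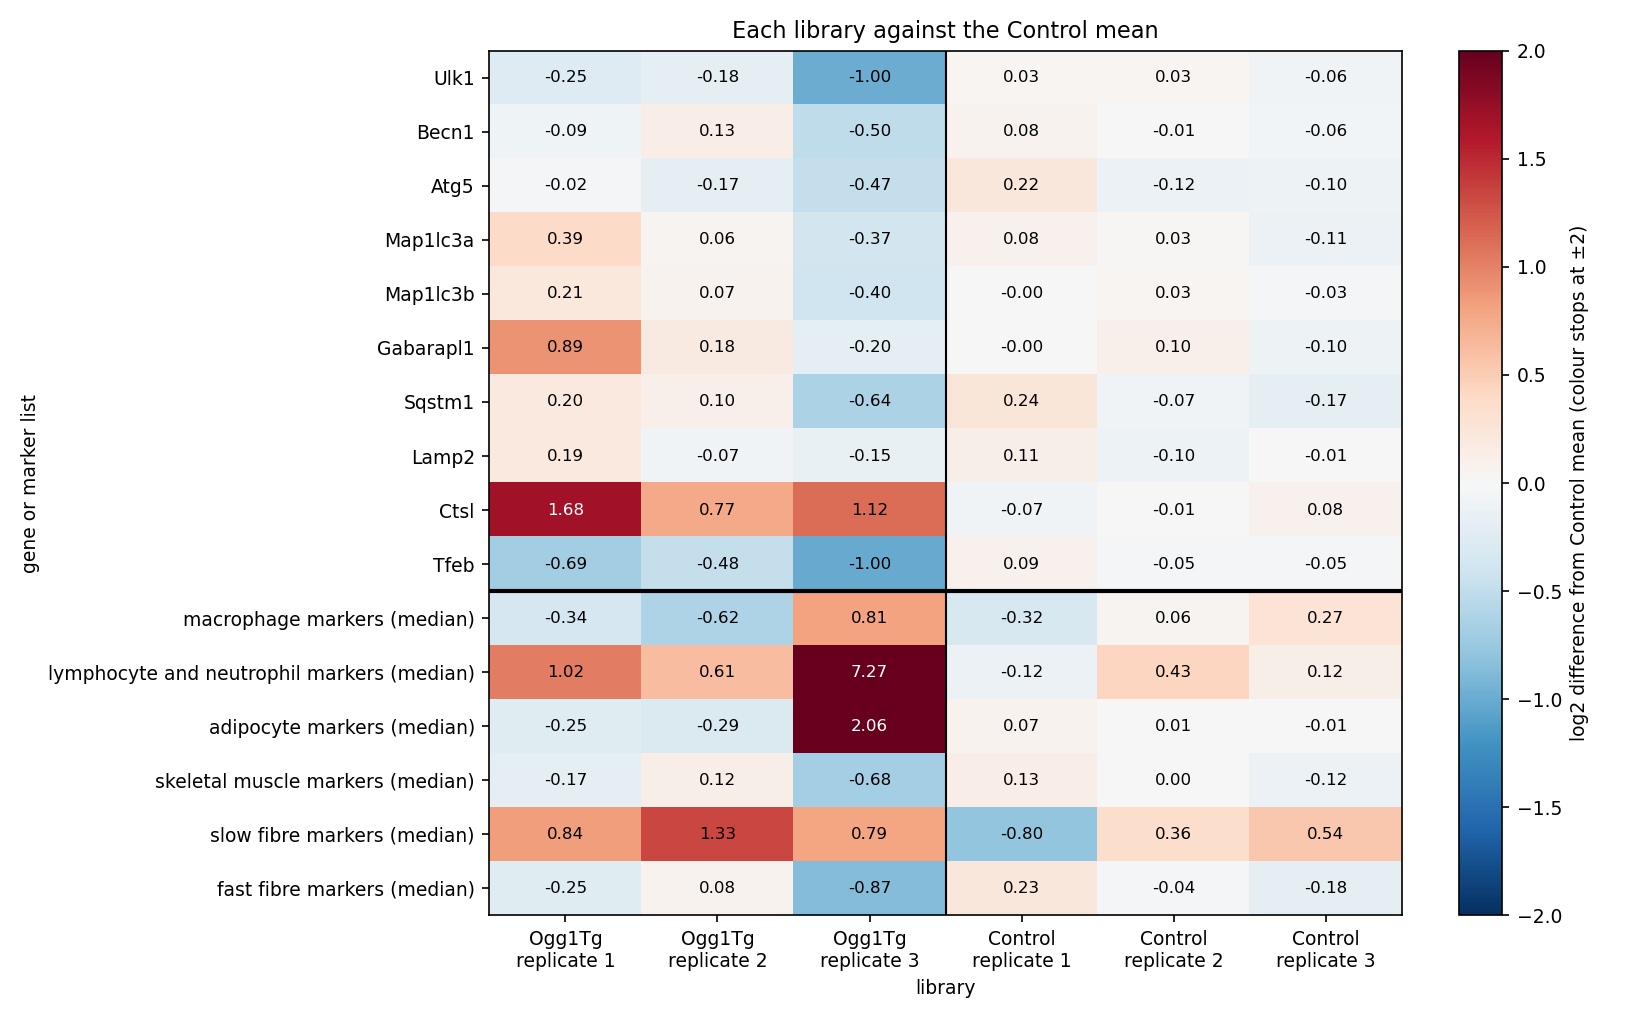
Log2 difference of each library (columns, Ogg1Tg left of Control) from the Control mean for the 10 genes and, under the thick line, the median of 6 marker lists. Colour stops at a difference of 2 in either direction and the numbers give the values. Ctsl is above and Tfeb below the Control mean in all 3 Ogg1Tg libraries, and Ogg1Tg replicate 3 and Control replicate 3 are each below it for 9 of 10 genes, by medians of -0.44 and -0.06. Over all genes tested the medians of these 2 libraries are -0.02 and 0.002.

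Of 12 further lysosomal proteases none passed, 6 had log2 fold changes above 0 and 6 below, the median was -0.03, and the groups overlapped for all 12. Ctss, cathepsin S of immune cells, had the highest log2 fold change, 0.61, and measured 161, 118 and 1244 in Ogg1Tg libraries, against 125, 197 and 268 in Control libraries. Its high Ogg1Tg value came from replicate 3 alone. Ctsf, cathepsin F, had the lowest, -0.29. Among cathepsins B, D and L, with values taken per kb of exon, the share of Ctsl was 13.5%, 8.41% and 13.2% in Ogg1Tg libraries, against 4.93%, 4.81% and 5.42% in Control libraries. The groups did not overlap in this share, which is free of the scaling between libraries but depends on the gene length used. Ctsb measured 8139 ± 621 in Ogg1Tg and 9163 ± 525 in Control muscle, and Ctsd 11786 ± 2504 in Ogg1Tg and 12258 ± 516 in Control muscle. Both were chosen after their values were seen.

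Tfeb measured 1838, 2136 and 1485 in Ogg1Tg libraries, against 3172, 2883 and 2885 in Control libraries. The highest Ogg1Tg library was below the lowest Control library. The means were 1819.8 ± 326 in Ogg1Tg and 2979.7 ± 166 in Control muscle. On the log2 scale this is -0.73 ± 0.15 (SE), its 95% interval running from -1.07 to -0.39 (limma adjusted p = 0.10). The gene lies on chromosome 17 from 47737030 to 47792419, and its values rest on 1476 to 1655 reads in Ogg1Tg and 2061 to 2287 reads in Control libraries. Tfeb passed without Ogg1Tg replicate 3 (limma adjusted p = 0.020, log2 fold change -0.59) and with DESeq2 (DESeq2 adjusted p = 0.0027). With edgeR it did not pass on all 6 libraries (edgeR adjusted p = 0.10) and passed without Ogg1Tg replicate 3 (edgeR adjusted p = 0.030), against 1.76% of all genes called. It did not pass without that library when the filter was taken over all 6 libraries, at the same log2 fold change (limma adjusted p = 0.14). Over all alternatives the adjusted p ran from 0.0027 to 0.45.

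The relatives of Tfeb had mixed levels. Mitf, a close relative best known from pigment cells, measured 1756, 1746 and 1099 in Ogg1Tg libraries, against 2023, 2083 and 2149.7 in Control libraries. Its groups did not overlap, and it did not pass (limma adjusted p = 0.39). Tfe3, which acts beside TFEB in muscle, measured 829.6 ± 62.8 in Ogg1Tg and 798 ± 27.8 in Control muscle, with overlapping groups. Tfec had at most 37.2 scaled reads, in Ogg1Tg replicate 3, and 0 to 2.80 in Control libraries. Of the summed level of the 4 relatives per kb of exon, Tfeb made up 47.0%, 50.03% and 48.6% in Ogg1Tg libraries, against 57.8%, 54.5% and 53.9% in Control libraries. The groups did not overlap in this share, and its size depends on the gene length used. The share of Tfe3 was higher without overlap, at 11.8%, 12.5% and 17.2% in Ogg1Tg libraries, against 8.53%, 9.39% and 9.33% in Control libraries. Shares of 1 sum are tied to each other, so that of Tfeb is no separate result from its level. The exons of Tfeb cover 5669 bases and its longest principal transcript 2296.

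Among 24 upstream regulators none passed, and the median log2 fold change was -0.06. Rragd, a GTPase at the lysosome surface through which nutrients are sensed, had the lowest log2 fold change of the list, -0.99. It measured 8262, 11136 and 4927 in Ogg1Tg libraries, against 16917, 14558 and 14571 in Control libraries, and its groups did not overlap (limma adjusted p = 0.20). Rragd passed without Ogg1Tg replicate 3, with a log2 fold change of -0.67 (limma adjusted p = 0.035), and with DESeq2 (DESeq2 adjusted p = 0.026). Without that library it did not pass with the filter over all 6 libraries (limma adjusted p = 0.22) or with edgeR (edgeR adjusted p = 0.051). The highest log2 fold change was that of Tfec, 2.33, from the few reads given above.

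Ulk1, the kinase that starts autophagosome formation, measured 4973, 5245 and 2972 in Ogg1Tg libraries, against 6060.1, 6062 and 5669.9 in Control libraries. Each Ogg1Tg library was below all Control libraries, and replicate 3 lay furthest down. The log2 fold change was -0.48 ± 0.21 (SE; limma adjusted p = 0.45), and -0.21 without Ogg1Tg replicate 3 (limma adjusted p = 0.30). Its relative Ulk2 measured 6977, 8046 and 4755 in Ogg1Tg libraries, against 10614, 9026 and 8885 in Control libraries, also without overlap (limma adjusted p = 0.34). Becn1, the scaffold of the lipid kinase complex, measured 1096, 1271 and 822 in Ogg1Tg libraries, against 1227, 1154 and 1116 in Control libraries. Its groups overlapped, and its log2 fold change of -0.15 had a 95% interval from -0.54 to 0.23. Without Ogg1Tg replicate 3 that value was 0.02.

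Of 13 further genes of the initiation and lipid kinase complexes none passed, 3 had log2 fold changes above 0 and 10 below, and the median was -0.11. Rubcn, an inhibitor of that complex, had the highest log2 fold change, 0.15. Bcl2, whose product binds BECN1, had the lowest, -0.57, with 263, 316 and 1073 in Ogg1Tg replicates 1, 2 and 3 and 566, 723 and 718 in Control libraries. Its Ogg1Tg values lay on both sides of the Control values. Without Ogg1Tg replicate 3, where lymphocyte markers were high, Bcl2 passed with a log2 fold change of -1.20 (limma adjusted p = 0.0047). With the filter over all 6 libraries it did not pass at the same log2 fold change (limma adjusted p = 0.12). The part of those cells in its level was not tested.

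Atg5, of the conjugation system, measured 528, 476 and 386 in Ogg1Tg libraries, against 627, 492 and 501 in Control libraries. The groups overlapped, with a log2 fold change of -0.22 and a 95% interval from -0.62 to 0.17 (limma adjusted p = 0.67). Of 20 further genes of conjugation and membrane supply none passed, 8 had log2 fold changes above 0 and 12 below, and the median was -0.07. Atg4c, a protease that prepares LC3 proteins, had the lowest log2 fold change, -0.58, at 1533, 1068 and 1029 in Ogg1Tg libraries, against 1534, 1951 and 1872 in Control libraries. Atg9b, a lipid scramblase of autophagosome precursors, had the highest, 0.94, at a mean of 33.6 ± 11.8 in Ogg1Tg and 16.7 ± 4.98 in Control muscle.

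The LC3 genes differed between groups by less than the spread between mice. Map1lc3a measured 3152, 2502 and 1866 in Ogg1Tg libraries, against 2542, 2456 and 2229 in Control libraries. The Ogg1Tg values lay on both sides of the Control range, and the log2 fold change of 0.03 had a 95% interval from -0.39 to 0.45. Map1lc3b, the LC3 form most used as an autophagosome marker, measured 6038, 5506 and 3967 in Ogg1Tg libraries, against 5228, 5356 and 5129.5 in Control libraries. It again had Ogg1Tg values on both sides of the Control range, with a log2 fold change of -0.04 and a 95% interval from -0.41 to 0.33. Its sign changed with median-of-ratios rescaling, quantile normalization, edgeR and DESeq2. The 3′ end of Map1lc3b overlaps Zcchc14 on the opposite strand, as Becn1 overlaps Cntd1 and Sqstm1 overlaps Mrnip. Gm20388 spans Map1lc3b on the same strand and measured 0 in every library, and Gm44243 lies within Gabarapl1 on its strand. How reads of such pairs were counted is not known here, so they may be shared or left out.

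Gabarapl1, an LC3 relative, measured 3463, 2111 and 1625 in Ogg1Tg libraries, against 1864, 2006 and 1741 in Control libraries. Replicate 1 was high, replicate 3 was below all Control libraries, and the groups overlapped (log2 fold change 0.29, 95% interval from -0.26 to 0.84). Without Ogg1Tg replicate 1 the log2 fold change was -0.01. Gabarap measured 3250.2 ± 528 in Ogg1Tg and 3724 ± 157 in Control muscle, and Gabarapl2 1987 ± 415 in Ogg1Tg and 2433 ± 156 in Control muscle. Of the summed level of the 5 LC3 and GABARAP genes per kb of exon, Gabarapl1 made up 21.3%, 15.5% and 16.1% in Ogg1Tg libraries, against 13.3%, 14.5% and 13.7% in Control libraries. In this share each Ogg1Tg library was above all Control libraries. The share of Map1lc3a was also above in each, and those of Gabarap and Gabarapl2 were below, as shares of 1 sum are tied to each other. The share of Map1lc3b was 10.4% ± 0.462 in Ogg1Tg and 10.4% ± 0.399 in Control muscle. The size of these shares depends on the gene length used: the exons of Map1lc3b cover 7517 bases and its longest principal transcript 2532.

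Sqstm1, the cargo receptor that links ubiquitin to LC3, measured 19771, 18492 and 11085 in Ogg1Tg libraries, against 20419, 16476 and 15291 in Control libraries. Ogg1Tg replicates 1 and 2 lay within the Control range and replicate 3 below it. The log2 fold change was -0.11, with a 95% interval from -0.65 to 0.42, and it was 0.15 without Ogg1Tg replicate 3 and 0.12 with quantile normalization. Of 16 further genes of cargo receptors and fusion none passed, 4 had log2 fold changes above 0 and 12 below, and the median was -0.13. Vamp8, a fusion protein of the autophagosome and lysosome, had the lowest log2 fold change, -0.53, at 498, 499 and 402 in Ogg1Tg libraries, against 664, 691 and 658 in Control libraries, with no overlap (limma adjusted p = 0.21). Plekhm1, an adaptor for that fusion, had the highest, 0.29, at 2311 ± 236 in Ogg1Tg and 1887 ± 64.4 in Control muscle.

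Lamp2, a lysosomal membrane protein needed for fusion, measured 6680.3, 5560.2 and 5283 in Ogg1Tg libraries, against 6306, 5468 and 5789 in Control libraries. The groups overlapped, with a log2 fold change of -0.01 and a 95% interval from -0.32 to 0.30, and the sign changed under other scalings. Its relative Lamp1 measured 10760.2, 10730.1 and 7215 in Ogg1Tg libraries, against 11323, 11246 and 11198 in Control libraries, without overlap (limma adjusted p = 0.63). Of 15 further genes of the lysosomal membrane none passed, 5 had log2 fold changes above 0 and 10 below, and the median was -0.10. Laptm4b had the lowest, -0.72, at 902, 1105 and 746 in Ogg1Tg libraries, against 1550.4, 1530.3 and 1394 in Control libraries (limma adjusted p = 0.13). The limma adjusted p without Ogg1Tg replicate 3 was 0.041, and 0.17 with the filter over all 6 libraries. Npc2, a cholesterol carrier of the lysosome, had the highest, 0.25.

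Of 18 subunits and partners of the proton pump that acidifies lysosomes, none passed, 8 had log2 fold changes above 0 and 10 below, and the median was -0.06. Atp6v1h, a subunit of the cytosolic part, had the highest log2 fold change, 0.89, at 1492, 786 and 974.7 in Ogg1Tg libraries, against 551, 625 and 517 in Control libraries, without overlap (limma adjusted p = 0.18; DESeq2 adjusted p = 0.0065). Replicate 1 was the highest of the Ogg1Tg libraries, as it was for Ctsl. Atp6v0e2 had the lowest, -0.26. Of 24 other hydrolases and activators none passed, 16 had log2 fold changes above 0 and 8 below, and the median was 0.10. Acp5, an acid phosphatase of macrophages and osteoclasts, had the highest, 0.55, with 38.9, 27.8 and 498 in Ogg1Tg replicates 1, 2 and 3 and 44.8 to 62.7 in Control libraries, so that replicate 3 alone was high. Smpd1, acid sphingomyelinase, had the lowest, -0.38.

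**Figure D3:**
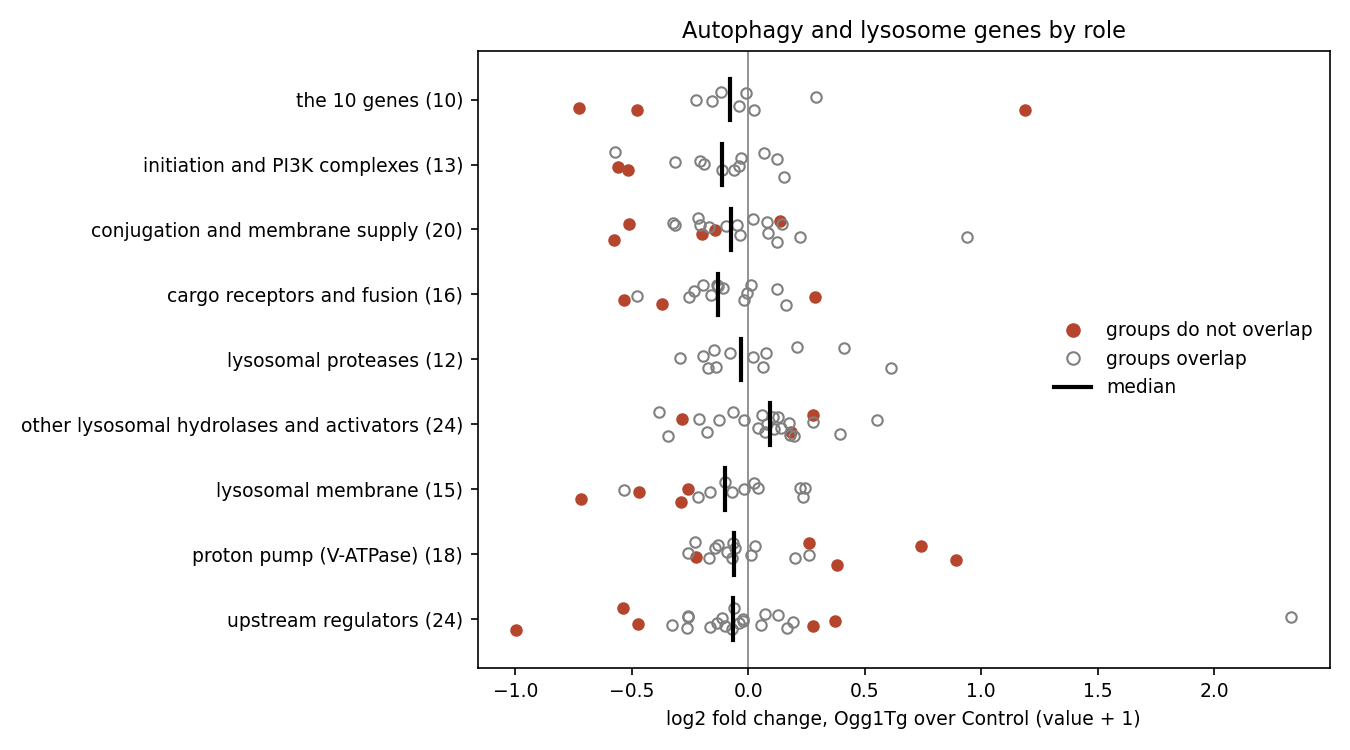
Log2 fold change (x axis, Ogg1Tg over Control) of the 10 genes and of 8 lists of other autophagy and lysosome genes, with the number of genes in brackets. Filled red points have groups that do not overlap, open points have groups that do, and black lines are list medians, which lie between -0.13 and 0.10. Ctsl lies at 1.19 and Tfeb at -0.73.

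Over the 141 different genes of these lists, 58 had log2 fold changes above 0 and 83 below, with a median of -0.06, against -0.02 over all genes tested. None passed limma. At an unadjusted p under 0.05 there were 18, which is 12.8% against 11% of all genes. None passed edgeR, against 0.532% of all genes, and 3 passed DESeq2, namely Atp6v1h, Laptm4b and Rragd, which is 2.13% against 2.66% of all genes. The groups did not overlap in 10 genes that were higher, 7.09% against 7.03% of all genes, and in 17 that were lower, 12.1% against 11.3% of all genes. In limma without Ogg1Tg replicate 3, Bcl2, Laptm4b and Rragd passed, all lower, which is 2.13% against 1.86% of all genes. With the filter over all 6 libraries that fit called none of them. These shares are near those of all genes.

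Ogg1Tg replicate 3 was below the Control mean for 9 of the 10 members, with Ctsl the exception, and so was Control replicate 3. The median log2 difference of the members from the Control mean was 0.19, 0.06 and -0.44 in Ogg1Tg replicates 1, 2 and 3, and 0.08, -0.01 and -0.06 in Control replicates 1, 2 and 3. In Ogg1Tg replicate 3 that median was -0.22 over the 141 other autophagy and lysosome genes and -0.02 over all genes tested. The summed scaled reads of all named genes were 45456600 in that library and 62344500 to 72210000 in the others. Skeletal muscle markers had medians of -0.17, 0.12 and -0.68 in Ogg1Tg replicates 1, 2 and 3. All 8 of them had log2 fold changes below 0, from -1.43 to -0.07, and none passed. The groups did not overlap for 1 of the 8, which was lower, 12.5% against 11.3% of all genes. Fast fibre markers had medians of -0.25, 0.08 and -0.87, and slow fibre markers 0.84, 1.33 and 0.79, with -0.80, 0.36 and 0.54 in Control replicates 1, 2 and 3. The groups did not overlap for 5 of 8 slow fibre markers, all higher, against 7.03% of all genes, and overlapped for all 8 fast fibre markers, and no marker of either list passed. The part of fibre type and of other cells in the members' levels was not tested.

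**Figure D4:**
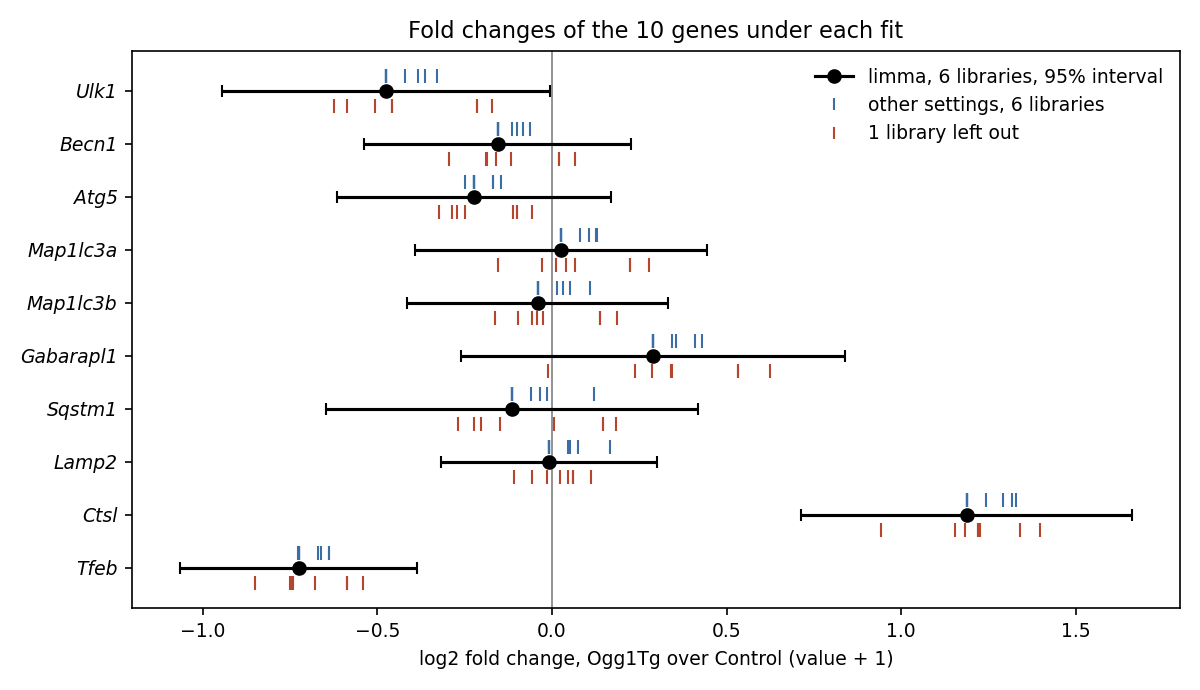
Log2 fold change (x axis, Ogg1Tg over Control) of the 10 genes with 95% intervals from limma on 6 libraries. Blue ticks show other settings on all 6 libraries and red ticks show fits without 1 library. The interval excludes 0 for Ctsl and Tfeb, ends at -0.01 for Ulk1 and includes 0 for the other 7 genes.

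Levels between genes were compared per kb of exon. In Control muscle the order was Sqstm1 at 5183 ± 800.0, Map1lc3a at 2039.9 ± 137, Gabarapl1 at 929 ± 65.8, Ulk1 at 914 ± 34.8, Map1lc3b at 697 ± 15.1, Lamp2 at 613 ± 44.3, Tfeb at 526 ± 29.3, Ctsl at 358 ± 18.5, Atg5 at 229.6 ± 31.97 and Becn1 at 165 ± 8.01 scaled reads per kb. The ranges of neighbours in that order overlapped for Gabarapl1 and Ulk1 alone. Ctsl had rank 4 in Ogg1Tg muscle, at 843 ± 274, and rank 8 in Control muscle, and Tfeb had rank 8 in Ogg1Tg muscle, at 321 ± 57.6, and rank 7 in Control muscle. In the Ogg1Tg order the ranges of neighbours were separate for Sqstm1 over Map1lc3a, Lamp2 over Tfeb and Tfeb over Atg5. By the length of the longest principal transcript, Ctsl had rank 6 in Ogg1Tg and 8 in Control muscle, and Tfeb rank 8 in Ogg1Tg and 5 in Control muscle, so the order depends on the length used. For Ctsl both lengths are close, 6489 bases of exon and 6168 of transcript. Its level per kb was therefore not checked against a shorter length.

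Patterns like that of Ctsl were sought among 12872 other genes with a mean of at least 100, less those with predicted, Rik or pseudogene names. Likeness was the root mean square difference of centred log2 values over the 6 libraries. The genes most like Ctsl were Cpne2, Ern1, Srxn1, Cth and Ghitm, with differences of 0.11, 0.12, 0.14, 0.15 and 0.16. Cpne2, a copine, measured 1825, 1020.0 and 1198 in Ogg1Tg libraries, against 545, 495 and 512 in Control libraries (limma adjusted p = 0.029). Ern1, a sensor of unfolded proteins in the endoplasmic reticulum, measured 3923, 1933 and 2177 in Ogg1Tg libraries, against 1247, 1195 and 1270.0 in Control libraries. Ghitm, of the inner mitochondrial membrane, passed (limma adjusted p = 0.033), and Ern1, Srxn1 and Cth did not (limma adjusted p = 0.14, 0.14 and 0.18). All 5 had their highest value in Ogg1Tg replicate 1, as Ctsl did. They were chosen for likeness to Ctsl over these 6 libraries, so this and their higher level in Ogg1Tg follow from the choice. Their p-values are no separate support.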

How the data were processed

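Libraries were prepared from total RNA of gastrocnemius with a NuGen Ovation Universal kit, per the labels' protocols. Trimmomatic, SAMtools, HTSeq and mm10 are named in the submitters' processing notes, without versions. No aligner, annotation or strand setting is given in the sources used here. Although called FPKM by their file names, the deposited signal values are gene counts divided by the authors by 1 factor per library: all lay within 0.01 of a whole multiple of 1 step. In Ogg1Tg replicate 3 that step is 1.01, near 1, but its deposited values, such as 1865.95 for Map1lc3a, are not whole numbers. The design assumed FPKM and its test was kept. The 1824 entries with no gene name, with 2.38% to 3.53% of reads, were not used.

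The main test was limma 3.58.1 (R 4.3.3) on log2(value + 1) for genes with a mean of 1 or more, a scale on which folds of low genes come out too small (variance trend, two-sided, Benjamini-Hochberg over all genes, called under 0.05). Alternatives changed the pseudocount (0.1), the filter (none, or a mean of 5), the scaling (median-of-ratios or quantile) and the trend (none or robust), added a replicate block, or left out each library. On recovered reads, DESeq2 1.42.0 and quasi-likelihood tests of edgeR 4.0.16 were run. Added after the data were seen were a filter on all 6 libraries and an edgeR fit, both without Ogg1Tg replicate 3, and a second gene length. The fits were tested on simulated data.

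The members and the lists of other genes were chosen with earlier results of these data known. Named genes are the members, their relatives, for each list the called genes or else those with the highest and lowest log2 fold change, the 5 genes most like a called member or the member with the smallest p, and Ogg1. Ckm and the genes called under alternatives alone were chosen after their values were seen. Coordinates and exon lengths are from GENCODE M21 on GRCm38. No 2 libraries agreed within sampling noise, with a chi-square per gene of at least 13.9. Counting error alone is covered by read counts.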

Additional observations from a re-analysis of the deposited data

How the results depend on the processing

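Members called numbered 0 in the reported fit, 1 (Ctsl) with median-of-ratios rescaling, quantile normalization or a robust trend, and 2 (Ctsl and Tfeb) with DESeq2 or with edgeR without Ogg1Tg replicate 3. With 1 library left out they ran from 0 to 2. Without Ogg1Tg replicate 3 and with the filter on all 6 libraries, members and other autophagy and lysosome genes called were 0 each, against 2 and 3 with the filter on the other 5. Other autophagy and lysosome genes called numbered 0, with 3 for DESeq2, 2 for edgeR without Ogg1Tg replicate 3 (Bcl2 and Lamtor3), and 0 to 3 with 1 library left out. All genes called numbered 127, with 46 for no variance trend, 619 for DESeq2, 402 for edgeR without Ogg1Tg replicate 3, 28 without that library and the filter on all 6, and 35 to 425 with 1 library left out and the filter on the other 5. The causes were not tested. Ctsl, Tfeb, Ulk1 and Atg5 kept their direction in all alternatives run. The sign changed for Map1lc3b (log2 fold change 0.014 with median-of-ratios rescaling, 0.11 with quantile normalization, 0.053 with edgeR and 0.032 with DESeq2) and for Lamp2 (0.047, 0.17, 0.075 and 0.051). It changed for Sqstm1 with quantile normalization (0.12). Without Ogg1Tg replicate 3 and with the filter on all 6 libraries the values were 0.14, 0.15, 0.019 and 0.061 for Map1lc3b, Sqstm1, Becn1 and Lamp2, and with edgeR without that library 0.19, 0.18, 0.066 and 0.11. With 1 library left out, log2 fold changes ran from -0.15 to 0.22 for Map1lc3a, -0.16 to 0.14 for Map1lc3b, -0.27 to 0.15 for Sqstm1, -0.012 to 0.53 for Gabarapl1, -0.30 to 0.019 for Becn1 and -0.11 to 0.061 for Lamp2.

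With a replicate block 102 genes were called, 95 of them among the 127, and none was a member (limma adjusted p = 0.077 for Ctsl). The labels do not say that numbers pair mice. Deviations of same-numbered libraries had correlations of -0.05, -0.01 and 0.03 across genes, and those of differently numbered libraries ran from -0.07 to 0.07. Such correlations cannot tell whether same-numbered mice shared a litter or a batch. Not every library correlated best with its own number. With 3 mice per group, differences as small as those of the LC3 genes are not resolved: their 95% intervals reach 0.45 on the log2 scale.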
